A study of Homo sapiens with 3 samples.

Results

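Keratins are the intermediate filament proteins of epithelial cells, and each filament is built from pairs of a type I and a type II keratin. In the single-layered lining of the gut the type II keratin is KRT8, and its type I partners are KRT18, KRT19 and, in differentiated intestinal cells, KRT20. The filaments give these cells mechanical strength and are anchored at desmosomes, the spot-like junctions between neighbours.

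Described here are the peaks of an eCLIP experiment that lay in these 4 genes. In eCLIP, RNA is crosslinked by UV light to a protein, precipitated with it and sequenced. The protein was a mouse pregnane X receptor (Pxr) with an HA tag, introduced by transfection for 24 h into LS174T cells, a human colon adenocarcinoma line. This nuclear receptor responds to many drugs and to bile acids and switches on genes that clear them. The groups were 1 input library and 2 replicates of the PXR immunoprecipitate, all from transfected cells, and the values come from 1 peak list of the immunoprecipitate. Peaks were taken from both strands when their centre lay in the RefSeq GRCh38.p14 span of KRT8, KRT18, KRT19 or KRT20, which gave 16 of the 21031 peaks in the list. The values of each library on its own were not used here, so none of the numbers below has a replicate error, and no comparison of immunoprecipitate with input was made. No expression values were used here either, so how abundant an RNA is in the cells and how much of it the receptor binds cannot be told apart.

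Each peak has a fold and a depth. The fold is the authors' ratio of the reads at the summit, the highest point of the peak, to a local background. The depth is the number of reads at the summit, recovered from the fold and its p-value, and its 95% exact Poisson interval covers counting error only. The background of the keratin peaks corresponds to the reads of the same strand in the 10 kb around the summit. Depths were sought among whole numbers only. For all 16 keratin peaks no other whole number near the recovered depth gave the same p-value, and solutions further away were not counted. The background of all 16, multiplied by 50, was whole within 0.05.

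KRT8, KRT18 and KRT19 held deep peaks, and KRT20 held none. Among all 20037 coding genes, 41.6% held at least 1 peak centre. A summit of at least 200 reads was found in 3 of the 4 keratin genes and in 0.524% of all coding genes. At least 4 peak centres were found in the same 3 genes and in 7.76% of all coding genes. KRT19 held exactly 4, so the count of 3 genes depends on this cut-off. The deepest summit had 1147 reads in KRT8 (1082 to 1215), 721 reads in KRT18 (669 to 776) and 288 reads in KRT19 (256 to 323). These 3 counting intervals did not overlap, so the order KRT8, KRT18, KRT19 was larger than counting error.

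**Figure D1:**
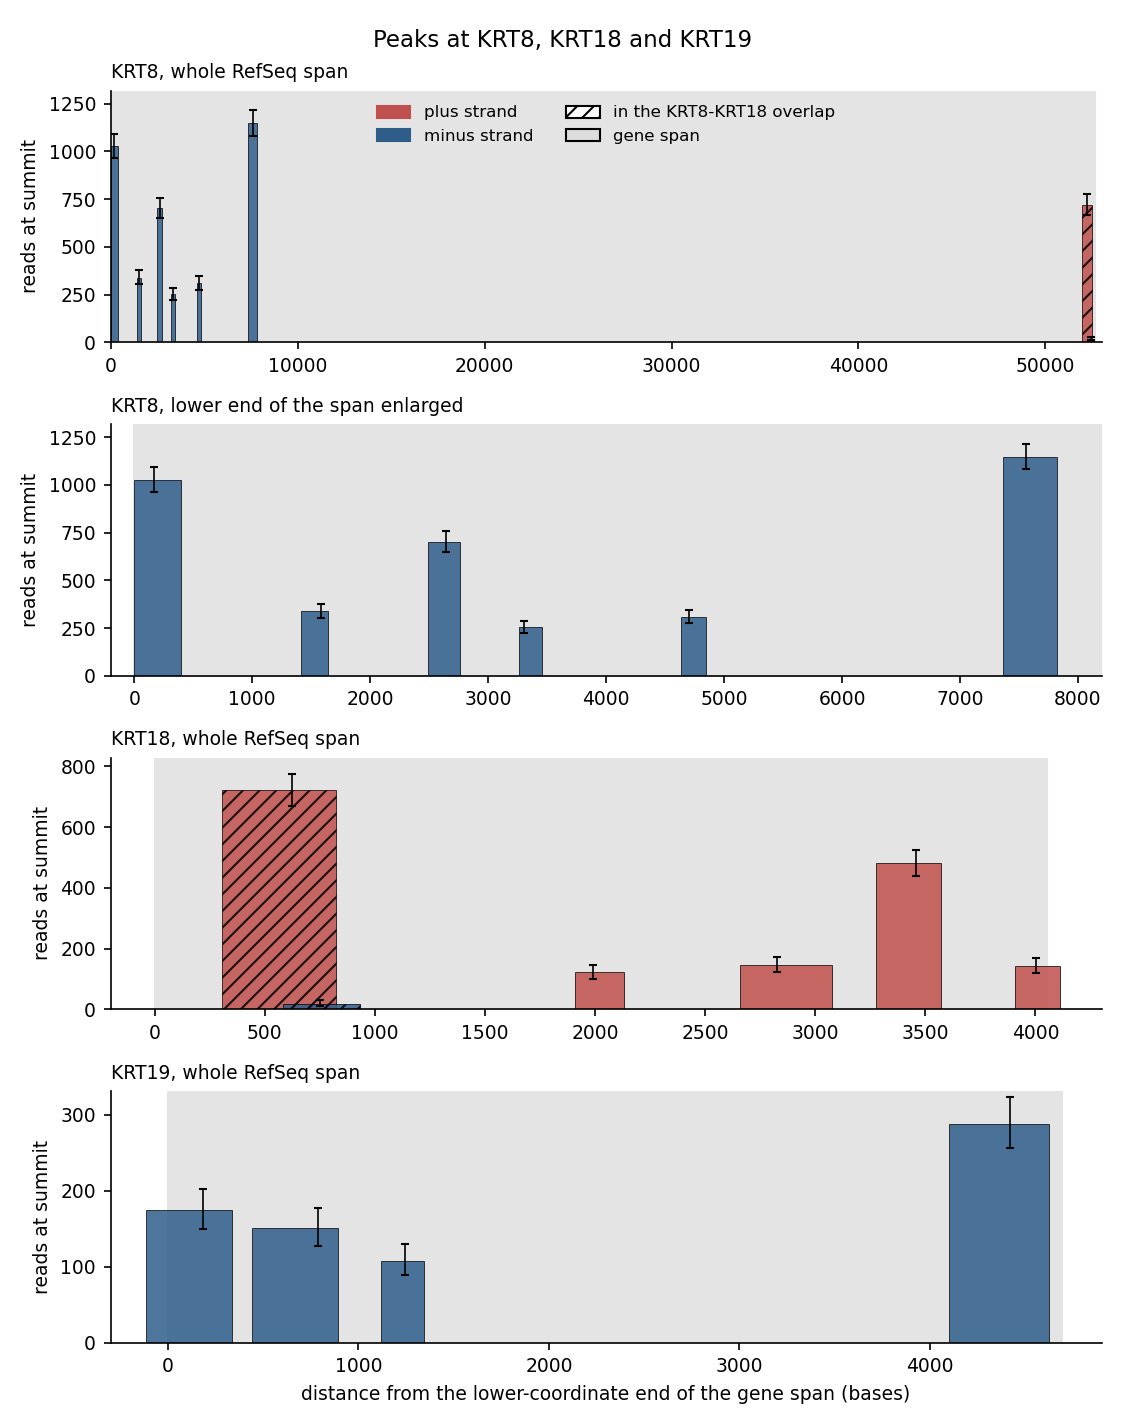
Peaks of KRT8 (whole span and enlarged lower end), KRT18 and KRT19, placed by their distance in bases from the lower-coordinate end of the gene span (grey). Bar width is the width of the peak, bar height is the number of reads at the summit, colour is the strand, hatching marks peaks where KRT8 and KRT18 overlap, and error bars are 95% Poisson intervals; the deepest summits have 1147, 721 and 288 reads.

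KRT8, the type II keratin, lies on chromosome 12 from 52897191 to 52949860 (hg38), and the RefSeq table places it on the minus strand. The span of 52670 bases held 8 peaks, of which 7 were on the minus strand and 1 on the plus strand. The 6 peaks that lay in KRT8 alone were all minus-strand peaks and sat in the 7830 bases at the lower end of the span. The deepest, at chr12:52904555-52905015, had 1147 reads at a fold of 17.7. The second, at chr12:52897186-52897591, had 1027 reads (965 to 1092) at a fold of 14.8 and reached just past the lower end of the span, which is the downstream end for a gene of the minus strand. These outermost peaks of the stretch were its deepest, and their counting intervals overlapped.

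Between the outermost peaks of KRT8 lay 4 others. The peak at chr12:52899677-52899953 had 702 reads (651 to 756) at a fold of 8.46. The peak at chr12:52898602-52898836 had 339 reads (304 to 377) at a fold of 4.71. The peak at chr12:52901828-52902035 had 309 reads (276 to 345) at a fold of 3.09. These 2 shallower peaks had overlapping intervals, and the 702 reads lay above both. The shallowest, at chr12:52900449-52900648, had 253 reads (223 to 286) at a fold of 2.5, and its width of 200 bases was the narrowest in the list. Its interval overlapped that of the 309-read peak and lay below the others. Across the 6 peaks the depth differed by 4.53 times.

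The deepest KRT8 summit held 35.9% of the 3196 reads in its 10 kb (95% exact binomial interval 34.2 to 37.6%). The shallowest held 5.03% of 5025 reads (4.45 to 5.68%). Its 10 kb took in the whole stretch of peaks, so its fold of 2.5 compares it with the reads of all KRT8 peaks outside the overlap. By depth this peak lay above 99.2% of the 20919 peaks on chromosomes 1 to 22, X and Y, and by fold above 0.679% of them.

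The KRT8 stretch also holds the gene of a microRNA, MIR9898, at chr12:52898889-52898984 on the minus strand. MicroRNAs are short RNAs cut from a hairpin that pair with messenger RNAs through their seed, bases 2 to 8. The hairpin is shown because it lies between peaks of KRT8, 52 bases from the edge of the 339-read peak and 692 bases from that of the 702-read peak. No peak overlapped it. The sequences are from RefSeq (GRCh38.p14), written 5′ to 3′, and capitals mark the mature microRNA in the hairpin and the seed in the mature microRNA.
MIR9898 hairpin: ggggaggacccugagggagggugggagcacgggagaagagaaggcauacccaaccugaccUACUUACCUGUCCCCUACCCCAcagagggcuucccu
hsa-miR-9898: uACUUACCuguccccuacccca

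The remaining 44146 bases of KRT8, up to the peaks in its overlap with KRT18, held no peak. The start site that the RefSeq promoter table gives for KRT8, at 52926469, lies within this empty part. The window of 250 bases before to 50 bases after that start held no peak, and the nearest peak was 21405 bases away.

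KRT18, the type I partner of KRT8, lies on chromosome 12 from 52948855 to 52952906 and is transcribed from the plus strand. Its span of 4052 bases overlaps the upper end of the KRT8 span over 1006 bases, from 52948855 to 52949860. KRT18 held 6 peaks, of which 5 were plus-strand and 1 minus-strand, and 2 of the 6 lay in the overlap and count for both genes. The plus-strand peak in the overlap, at chr12:52949162-52949677, had 721 reads at a fold of 15.5 and was the deepest of KRT18. The minus-strand peak in the overlap, at chr12:52949437-52949789, had 19 reads (11.4 to 29.7) at a fold of 7.63. The peaks of the pair shared 241 bases, and their summits lay 129 bases apart. The minus strand held 2.57% of the reads of both summits (exact binomial interval 1.55 to 3.98%). It is the shallowest of the 16 keratin peaks, and its summit lay 253 bases from the upper end of the KRT8 span. The 10 kb around the minus-strand summit held 81 reads of its strand, beside 2277 plus-strand reads around the plus-strand summit. Which RNA the 19 reads came from, of either strand, was not tested.

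The other 4 peaks of KRT18 lay in KRT18 alone and on the plus strand. Of these the deepest, at chr12:52952131-52952426, had 481 reads (439 to 526) at a fold of 10.4. The peak at chr12:52951511-52951932 had 145 reads (122 to 171) at a fold of 3.14. The peak at chr12:52952764-52952965, at the downstream end, had 144 reads (121 to 170) at a fold of 3.12. The peak at chr12:52950765-52950986 had 122 reads (101 to 146) at a fold of 2.64. The last 3 had overlapping intervals and were not distinguishable by depth. KRT18 thus had 2 deep peaks, one near the upstream end and one towards the downstream end, and the deepest had 5.91 times the reads of the shallowest plus-strand peak.

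Each peak was called on a single strand, and its summit counts reads of that strand only. The 6 peaks in KRT8 alone were all minus-strand peaks, with 3777 summit reads. The 4 peaks in KRT18 alone were all plus-strand peaks, with 892 summit reads. Reads of the other strand at these places were not counted, because no peak was called there. With the overlap counted, minus-strand peaks held 84.0% of the 4517 summit reads of KRT8 (exact binomial interval 82.9 to 85.1%). In KRT18 they held 1.16% of 1632 (0.702 to 1.81%). These are shares of the summits of called peaks, not of all reads on each strand. The plus-strand share of KRT8 came entirely from the 721 reads of the peak it shares with KRT18.

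KRT19, a type I keratin that can pair with KRT8, lies on chromosome 17 from 41523617 to 41528308 and is transcribed from the minus strand. All 4 of its peaks were on the minus strand. The deepest, at chr17:41527714-41528241 near the upstream end, had 288 reads at a fold of 11.5. The other 3 were grouped at the downstream end. The peak at chr17:41523503-41523953 had 175 reads (150 to 203) at a fold of 6.94. The peak at chr17:41524058-41524511 had 151 reads (128 to 177) at a fold of 6.0. The peak at chr17:41524736-41524964 had 108 reads (88.6 to 130) at a fold of 4.30. The intervals of 175 and 151 reads overlapped, those of 151 and 108 reads overlapped slightly, and those of 175 and 108 did not. The 2749 bases between the upstream peak and the other 3 held no peak.

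KRT20, the type I keratin of differentiated intestinal cells, lies on chromosome 17 from 40875889 to 40885242, on the minus strand. No peak overlapped its 9354 bases by even 1 base. The nearest peaks lay 56925 bases below it, in KRT10, and 638260 bases above it, in KRT19. The shallowest peaks of the whole list had 4 reads at the summit, so the list does not show RNA present below the depth at which a peak is called. KRT20 is also overlapped by the lncRNA gene LOC105371777.

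Per kb of the stretch from first to last peak, KRT8 and KRT18 had close read densities and KRT19 a lower one. The stretch from the first to the last peak was 7830 bases in KRT8 without the overlap, 3804 bases in KRT18 and 4739 bases in KRT19. The 10 kb window with the most reads held 5025 reads in KRT8, 2278 in KRT18 and 1218 in KRT19, and in each gene it took in the whole stretch. This gave 642 reads per kb of stretch in KRT8, 599 in KRT18 and 257 in KRT19. These values assume that the reads of the window fell within the stretch, which the list cannot show. They also depend on the length used. The widths of the same peaks summed to 1787 bases in KRT8, 1658 in KRT18 and 1662 in KRT19. These widths are close while the reads of the windows differ, so KRT8 and KRT18 are close per base of stretch but not per base of peak.

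Peaks covered 42.2% of the KRT18 span, 33.0% of the KRT19 span and 4.58% of the KRT8 span. Among the 8329 coding genes with a peak, these shares ranked 176, 249 and 2389. The low value of KRT8 comes with its long span, of which the 44146 bases named above held no peak. The number of peaks per 10 kb was 14.8 in KRT18, 8.53 in KRT19 and 1.52 in KRT8.

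**Figure D2:**
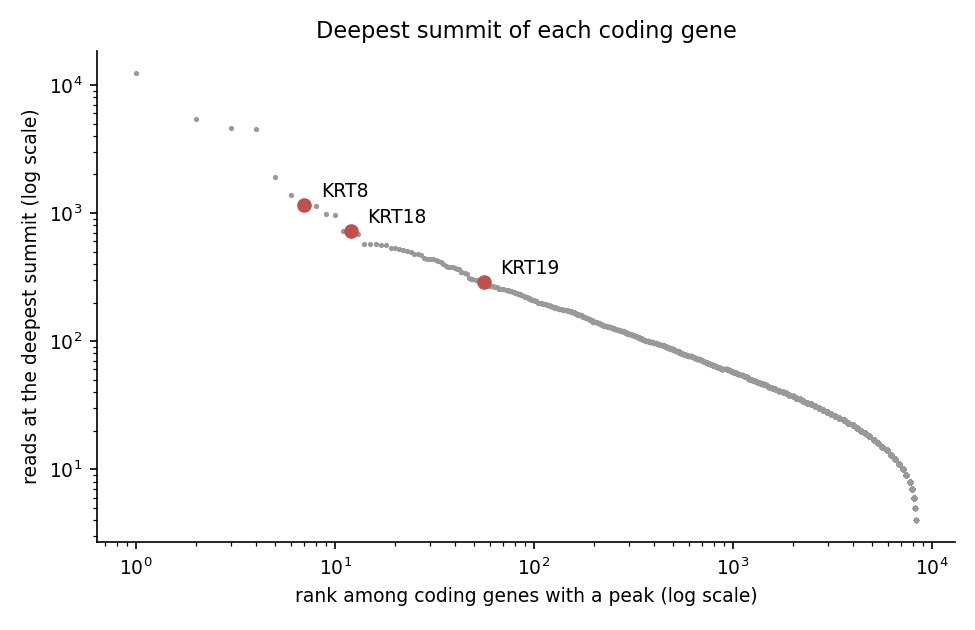
Reads at the deepest summit of each of the 8329 coding genes with a peak, against the rank of the gene (both axes logarithmic). KRT8, KRT18 and KRT19 are marked at ranks 7, 12 and 56.

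In the order of deepest summits among these 8329 coding genes, KRT8 ranked 7, KRT18 ranked 12 and KRT19 ranked 56. Nearest above KRT8 were DNM3 with 4540 reads, the zinc finger gene ZNF773 with 1927 and TMSB10, for an actin-binding thymosin, with 1376. Nearest below it were the glycolysis gene GAPDH with 1137 reads (1072 to 1205), the actin gene ACTB with 986 and the ferritin gene FTH1 with 972. KRT8 and GAPDH had overlapping intervals and were not distinguishable by depth. DNM3 and ZNF773 held 1 peak each, against 8 in KRT8.

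KRT18 stood between EEF2, for a translation elongation factor, with 730 reads (678 to 785) and NR1I2, the human gene of the pregnane X receptor, with 682 reads (632 to 735). The intervals of these 3 genes overlapped. The cells also carried the transfected mouse Pxr, and whether reads of its RNA were placed at NR1I2 was not tested. Next in order were ACTB and FTH1 above, and the actin gene ACTG1 with 578 reads and the sodium pump gene ATP1B1 with 574 below. KRT19 stood between GSTP1, for a glutathione transferase, with 289 reads and FTL, the ferritin light chain, with 282 reads. PLEC with 300 reads, RGMB with 291, EIF5A with 275 and HMGA1 with 273 were the others nearest to it, and the interval of KRT19 overlapped those of all 6.

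By the deposited fold the same genes stood far lower. The highest fold was 17.7 in KRT8, 15.5 in KRT18 and 11.5 in KRT19, which ranked 322, 524 and 1376 among coding genes with a peak. The median fold of the 16 keratin peaks was 6.47, beside 5.93 for the 19269 peaks of all coding genes. Their median depth was 270 reads, beside 22 in all coding genes. The median count in the 10 kb was 2277 reads for keratin peaks and 127 reads for peaks of all coding genes. Of the 16 keratin peaks 15 had at least 100 reads (93.8%), beside 3.80% of the peaks of all coding genes, and 7 had a fold under 5 (43.8%, beside 29.6%). All 16 had a −log10 q at or above the median of the list, 9.16. Peaks within a gene share their 10 kb and are not independent.

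**Figure D3:**
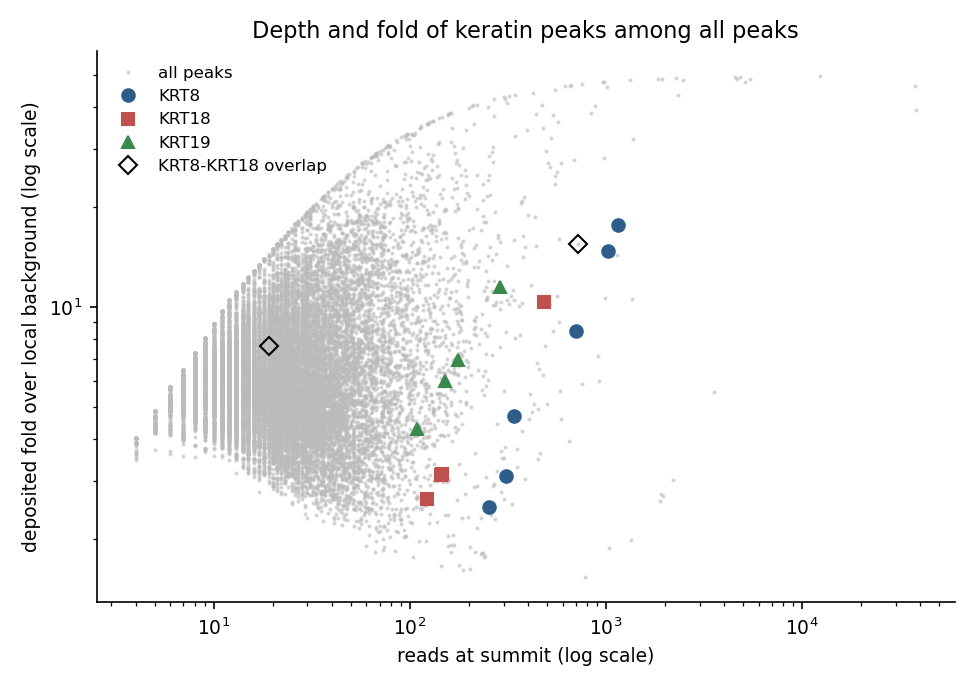
Deposited fold against reads at the summit (both axes logarithmic) for the 20919 peaks on chromosomes 1 to 22, X and Y (grey), with peaks of KRT8, KRT18 and KRT19 and the 2 peaks of the KRT8 and KRT18 overlap marked. The keratin peaks lie at high depth over a wide range of folds, 2.5 to 17.7, and 1 peak of the overlap lies apart at 19 reads.

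The place of the deepest peak along the gene was compared among coding genes with at least 4 peaks on 1 strand, taking the strand with most peaks as the direction of the gene. In KRT18 and KRT19 the most upstream peak was the deepest. In KRT8 the deepest was the second of 7 from the upstream end, after the 19-read peak in the overlap. Among all 1466 such coding genes the most upstream peak was the deepest in 523 (35.7%), and the most downstream peak in 332 (22.6%). With 3 keratin genes these counts are a description.

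Few other keratin genes held a peak. The list of 3 other simple epithelial keratins, a grouping made for this report, held KRT7, KRT23 and KRT80. Of these KRT80 alone had peaks, and whether it belongs to simple epithelia was not examined. The KRT80 peaks, on the minus strand, had 26 reads (17.0 to 38.1) at a fold of 12.1 and 19 reads (11.4 to 29.7) at a fold of 5.03. Of 21 keratins of stratified epithelia such as skin, KRT10 and KRT17 had a peak (9.52%, beside 41.6% of all coding genes). KRT10, a keratin of the upper epidermis, had minus-strand peaks of 26 reads and 11 reads (5.49 to 19.7). KRT17 had 1 peak, of 9 reads (4.12 to 17.1), with a width of 200 bases. None of 26 keratins of hair and its root sheath had a peak. The median span was 5820 bases in the stratified list and 7499 bases in the hair list, beside 24115 bases for all coding genes. The deepest summit of any of these 50 other keratins, 26 reads, was below all peaks of KRT8, KRT18 and KRT19 except the minus-strand one in the overlap.

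Among the 15 other intermediate filament genes, the 3 lamin genes had peaks (20%, beside 41.6% of all coding genes) and the rest did not. The median span of the 15 was 12342 bases, beside 24115 bases for all coding genes. LMNA, for the lamins A and C of the nuclear envelope, had 9 peaks and a deepest summit of 189 reads (163 to 218). LMNB2 had 8 peaks and 67 reads, and LMNB1 had 5 peaks and 57 reads. VIM, for the vimentin of connective tissue cells, and the genes of desmin, of the glial filament protein and of the neurofilaments had no peak.

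**Figure D4:**
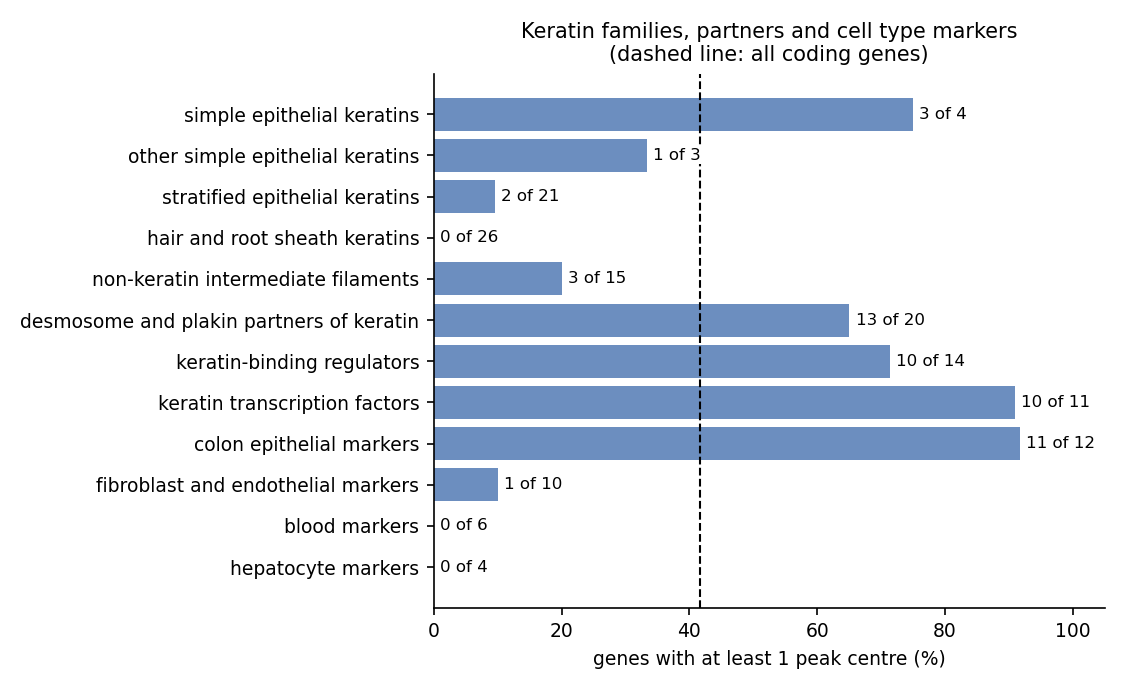
Percentage of genes with at least 1 peak centre in each list of keratins, their partners and cell type markers, with the number of genes beside each bar. The dashed line is the share in all coding genes, 41.6%; no test was made between the lists and that share.

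Genes whose proteins anchor keratin filaments had peaks in 13 of 20 cases (65.0%, beside 41.6% of all coding genes). Their median span was 44313 bases, longer than that of all coding genes. PLEC, for plectin, which ties intermediate filaments to junctions, had 11 peaks and a deepest summit of 300 reads (267 to 336) and was the deepest of the list. The desmosome gene PKP3 had 110 reads, PERP had 107, the plakin gene EPPK1 had 89 and JUP, for plakoglobin, had 72. DSP, for the desmoplakin that links keratins to the desmosome, had 11 peaks and 53 reads. The desmosomal cadherin genes of simple epithelia, DSG2 and DSC2, had 38 and 28 reads, and DSG1, DSG3, DSG4, DSC1 and DSC3 had no peak. The interval of PLEC overlapped that of KRT19, and the others named lay below it.

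Of 14 genes for proteins that bind or modify keratins, 10 had a peak (71.4%, beside 41.6% of all coding genes). The deepest were RACK1 with 179 reads, the kinase gene CSNK1A1 with 176, the chaperone gene HSPA8 with 109, the ubiquitin ligase gene STUB1 with 99 and PNN with 94. FAM83H, TCHP, YWHAE and TRADD had none. Of 11 transcription factors known to act on keratin genes or in the gut epithelium, 10 had a peak, and TFAP2C had none. This share of 90.9% stands beside 41.6% of all coding genes. The median span was 13807 bases in the list of keratin-binding proteins and 22563 in this list, beside 24115 bases for all coding genes. KLF5, a factor of intestinal crypt cells, had 211 reads, ETS2 had 164, ELF3 had 44, KLF4 had 41, and CDX2 and HNF4A had 36 each.

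Markers of the labelled cell type and of other cell types were looked up. These lists were chosen with earlier results of these data known, so they are not an independent check of the cell type. Of 12 colon epithelial markers 11 had a peak (91.7%, beside 41.6% of all coding genes), and SPDEF had none. The adhesion gene EPCAM had 220 reads (192 to 251), PHGR1 had 190, the mucin gene MUC2 had 182, LGALS4 had 142 and AGR2 had 108. The intervals of KRT8, KRT18 and KRT19 all lay above that of EPCAM, the deepest of these markers. Of 10 fibroblast and endothelial markers COL1A2 alone had a peak (10%, beside the same 41.6%), of 10 reads. None of 6 blood and 4 hepatocyte markers had one. Median spans were 17745 bases for colon, 38234 for fibroblast and endothelial, 9408 for blood and 10417 for hepatocyte markers. The median for all coding genes was 24115 bases.

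KRT8, KRT18 and KRT19 have many pseudogenes, which are copies of their messenger RNA sequence elsewhere in the genome, and 21 of 125 such pseudogenes held a peak (16.8%). Among all 17051 pseudogenes 5.01% did. By parent these were 10 of 52 pseudogenes of KRT8, 10 of 68 of KRT18 and 1 of 5 of KRT19. The 22 peaks had a median depth of 14 reads, 15 of them had fewer than 20 reads, and 7 were 200 bases wide. Their summed summit reads, 569, equal 9.28% of those of the 16 keratin peaks.

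The deepest pseudogene peaks were those of KRT8P3, KRT8P33 and KRT19P1. KRT8P3, on chromosome 8, had a summit of 117 reads (96.8 to 140) at a fold of 21.8 and another of 69 reads (53.7 to 87.3) at a fold of 12.9. KRT8P33, on chromosome 5, had 82 reads (65.2 to 102) at a fold of 16.7, and KRT19P1, on chromosome 6, had 41 reads (29.4 to 55.6) at a fold of 20.8. The higher fold of KRT8P3 and the fold of KRT19P1 were above the highest of the keratin genes, 17.7 in KRT8. The other fold of KRT8P3 was below it. The fold is relative to the reads in the 10 kb, which were 221 at KRT8P3, 51 at KRT19P1 and 3196 at that KRT8 peak. The 117 reads of KRT8P3 lay above the 108 reads of the shallowest KRT19 peak (88.6 to 130) and below the 122 reads of the shallowest plus-strand KRT18 peak (101 to 146), with overlapping intervals in both cases. KRT8P3 lies within ASPH and KRT8P33 within CEP120, and 12 of the 22 peaks lay in more than 1 gene. Pseudogenes resemble their parents closely, so how the aligner divided reads between a keratin gene and its copies is uncertain, and its part in these depths was not tested.

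**Figure D5:**
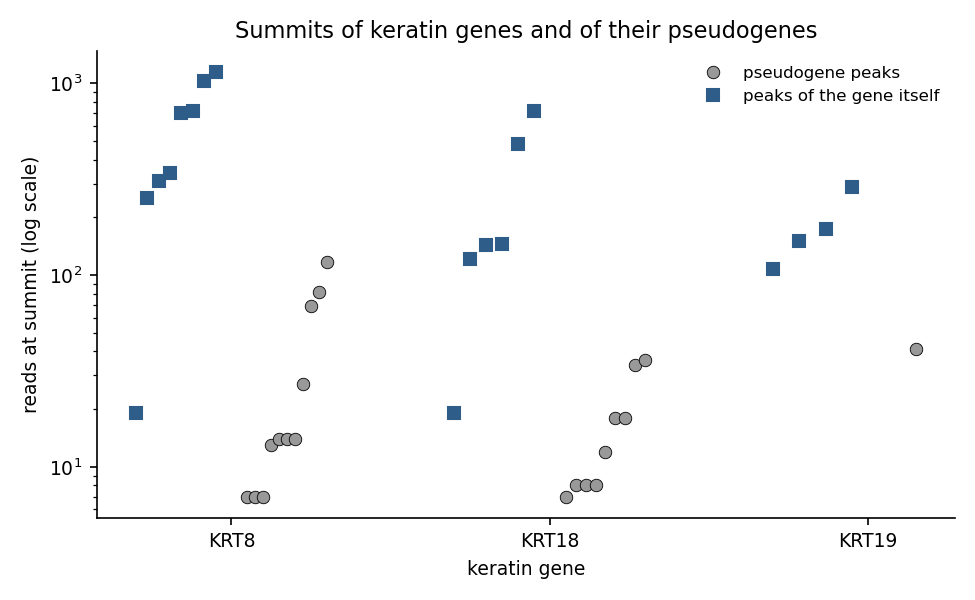
Reads at the summit (logarithmic axis) of each peak of KRT8, KRT18 and KRT19 (squares) and of their pseudogenes (circles). Horizontal spread within a gene has no meaning. A pseudogene peak of the Y chromosome is not drawn but is counted among the 22 pseudogene peaks of the text. The 2 peaks of the overlap stand under both KRT8 and KRT18, and the deepest pseudogene peak, at 117 reads, is below the 253 reads of the shallowest peak in KRT8 alone and above the 108 reads of the shallowest peak of KRT19.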

How the data were processed

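The list holds 21031 peaks of the immunoprecipitate on hg38. Per the submitters' processing notes the tools were cutadapt, BWA and MACS2, without versions or settings. No source used here says whether the replicates were pooled. The deposited names show a call for each strand. In every peak the deposited score was 10 times its −log10 q, cut to a whole number. The deposited fold is a ratio of summit to background, each with 1 added. The significance columns deposited as −log10 p and −log10 q are Poisson-based. The last deposited column is the summit's distance from the peak start.

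Reads at a summit were recovered as the whole number that gives both fold and −log10 p (within 0.0001 plus a 0.00001 part, in 21028 peaks). The step returned all 2000 simulated peaks. Multiplied by 50, the background was whole within 0.05 in 20367 peaks. Centres were assigned to spans of 59792 RefSeq genes (GRCh38.p14, the coordinates of hg38). Intervals are exact Poisson or Clopper-Pearson at 95%, and reads copied in PCR are not independent. Library totals and exons were not used here. Of the 4 keratins, the promoter table states the strand of KRT8 and KRT20. The strands of KRT18 and KRT19 are background knowledge. No test was made.

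The members, the lists and the rule for named genes were chosen with earlier results of these data known. The rule named all keratin peaks, at most the 5 deepest genes per list, the 3 nearest genes on each side of a keratin by depth and the 3 deepest pseudogenes. CDX2 and HNF4A tied for the last place in their list. DSP, DSG2, DSC2 and genes without a peak were named outside it, after their values were seen. Python 3.11.15, numpy 2.4.6, scipy 1.17.1 and pandas 2.3.3 were used. Alternatives were a stricter −log10 q, other ways of assigning peaks, and other orders of genes.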

Additional observations from a re-analysis of the deposited data

How the results depend on the processing

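Of 87 alternative values for 27 results, 75 stayed within counting error (reads, shares) or within 1.5 times (counts, ranks) and 12 moved. All 16 keratin peaks had a −log10 q at or above the median, so that setting could not change their counts, reads or folds. Lists without a peak could not change under it either. The 75 therefore include values that were fixed in advance. With peaks in 1 gene alone, the summed summit reads were 3777 in KRT8 and 892 in KRT18, and KRT18 ranked 21. With peaks on the gene's own strand, KRT8 had 3796 summed reads and ranked 3 among the genes whose strand the promoter table gives; KRT18 and KRT19 are not in that table, so this was not run for them. Ranked by fold, KRT8, KRT18 and KRT19 stood at 322, 524 and 1376, and by summed summit reads KRT18 stood at 21. With each peak of equal weight, 87.5% of KRT8 peaks lay on the minus strand. With −log10 q at or above the median, 1 of the stratified keratins and 13 pseudogene peaks were left. Among the 16 keratin peaks the minus-strand peak of the overlap has the fewest reads, with an interval of 11.4 to 29.7 reads; the peaks of KRT17, COL1A2 and the shallower one of KRT10, and 15 pseudogene peaks, also have fewer than 20 reads. No paired analysis was possible because the list holds no values of single replicates, and for the same reason no replicate could be left out.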
